A study of Mus musculus with 6 samples.

Results

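The 10 genes described here encode secreted glycoproteins and small proteoglycans of the extracellular matrix. They are Dcn, Lum, Bgn, Fmod, Postn, Tnc, Fn1, Fbn1, Fbn2 and Vcan. They were chosen by name from a deposited table of 22667 genes, and all 10 had values in it. Each of 6 mouse embryos, collected at E13.5, gave 1 RNA library made from its 2 kidneys. The 3 mutant embryos were labelled Fat4-/- and the 3 wildtype embryos Fat4+/+. All 6 came from 1 pregnant female of a stock given as C57BL6/6 and backcrossed 6 times. The labels name no Cre driver and do not say which part of Fat4 the mutation removes. Most of the ureter had been cut away, which left ureteric bud, condensing mesenchyme and stroma. Every library is thus a separate animal of a single litter, and p-values refer to the spread between littermates.

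Fat4 is a giant cadherin that binds Dachsous cadherins on neighbouring cells, and the study compared kidneys of Fat4-/- and Fat4+/+ embryos. In matrix, small leucine-rich proteoglycans (decorin, biglycan, lumican and fibromodulin) bind collagen fibrils and set their spacing. Fibrillins form microfibrils that hold latent forms of Tgfb, fibronectin is laid down as fibrils by cells through integrins, and versican binds hyaluronan. Periostin and tenascin C are matricellular proteins, made where tissue is being remodelled. In the embryonic kidney the interstitial matrix is made mainly by stromal and other mesenchymal cells.

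None of the 10 genes passed the test over all genes in either direction (limma, adjusted p under 0.05), where 1.43% of 12315 tested genes did, 0.552% higher and 0.877% lower. Biglycan (Bgn) came nearest, at 32.2 ± 3.48 cRPKM in mutant kidneys and 42.1 ± 3.07 cRPKM in wildtype kidneys (SD, n = 3 each). A cRPKM is a corrected number of reads per kilobase of gene, relative to all mapped reads. Values did not overlap between genotypes for 4 of the 10 genes, against 18.2% of all tested genes. Bgn, Fn1 and Fbn1 were lower in every mutant library, and Tnc was higher in every mutant library. Dcn, Lum and Postn had the largest spread among wildtype libraries, with 1 wildtype embryo far above the other 5.

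Fat4 itself, read as a check of the labels, averaged 7.50 ± 0.310 cRPKM in mutant and 16.4 ± 0.634 cRPKM in wildtype kidneys (SD, n = 3 each). The mutant mean was 0.457 times the wildtype mean, so reads assigned to Fat4 were fewer but not absent in the mutant libraries. Annotated genes on the opposite strand, C230034O21Rik and Gm43539, share exon bases with Fat4. The handling of strand is not given, so the reads left in mutant libraries may not all be from Fat4. Over all genes the libraries held 473695 to 503223 cRPKM. Their read totals are not known, and the steps between low values put the other 5 libraries at 0.902 to 1.04 times the depth of wildtype embryo 1, with only factors near 1 searched. The best factor explained 17 of 35 genes for wildtype embryo 3 and 23 of 34 for mutant embryo 1, so these estimates are weak. The 4 Y-linked genes were at 8.07 to 24.59 cRPKM in mutant embryo 1 and at most at 0.05 in mutant embryos 2 and 3, against 7.79 to 27.06 in the 3 wildtype libraries. Sex was therefore uneven between the genotypes. Of the markers fixed for the tissue, those of nephron progenitors, stroma and ureteric epithelium were well expressed. Of the 5 urothelial markers, Upk2, Upk3a and Krt5 were at most at 0.06 cRPKM and Upk1b at most at 0.17, while Upk1a was at 0.80, 0.84 and 0.94 cRPKM in the mutant libraries, against 0.90, 0.92 and 0.99 cRPKM in the wildtype libraries. The list summed to between 0.91 and 1.15 cRPKM in mutant kidneys, against 0.96 to 1.12 cRPKM in wildtype kidneys.

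The upstream sequences of 4 genes are shown because these genes carry the patterns that follow. Bgn and Tnc had values on opposite sides of the wildtype range, and Postn and Fmod were among the genes that stood high in 1 wildtype embryo. Each is the 250 bases 5′ of a RefSeq start site on GRCm38.p6 that lies within 10 bases of the start of the gene in GENCODE M21. Capitals mark a TATA box (TATAAA) or a GC box (GGGCGG) on either strand. The windows are chrX:73483351-73483600 on the plus strand for Bgn, chr4:64047016-64047265 on the minus strand for Tnc, chr3:54360857-54361106 on the plus strand for Postn and chr1:134037004-134037253 on the plus strand for Fmod.
Bgn: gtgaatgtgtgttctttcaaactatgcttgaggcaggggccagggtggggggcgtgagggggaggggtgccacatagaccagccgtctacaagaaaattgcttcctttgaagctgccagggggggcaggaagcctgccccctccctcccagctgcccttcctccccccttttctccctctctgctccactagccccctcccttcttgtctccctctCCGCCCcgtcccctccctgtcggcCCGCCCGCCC
Tnc: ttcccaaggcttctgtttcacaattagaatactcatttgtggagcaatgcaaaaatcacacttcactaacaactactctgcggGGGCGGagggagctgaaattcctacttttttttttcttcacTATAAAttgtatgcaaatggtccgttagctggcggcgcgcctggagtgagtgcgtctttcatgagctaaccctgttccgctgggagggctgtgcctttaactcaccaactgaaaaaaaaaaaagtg
Postn: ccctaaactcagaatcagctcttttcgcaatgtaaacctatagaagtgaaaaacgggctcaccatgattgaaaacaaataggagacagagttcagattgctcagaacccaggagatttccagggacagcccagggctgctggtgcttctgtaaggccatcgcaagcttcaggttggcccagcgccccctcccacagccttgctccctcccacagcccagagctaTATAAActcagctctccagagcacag
Fmod: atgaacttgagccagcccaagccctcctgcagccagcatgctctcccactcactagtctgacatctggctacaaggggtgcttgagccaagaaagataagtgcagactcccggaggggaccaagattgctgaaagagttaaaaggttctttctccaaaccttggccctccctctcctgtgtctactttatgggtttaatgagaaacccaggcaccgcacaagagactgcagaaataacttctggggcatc

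The windows differed in matches to these motifs. Postn had a TATA box that began 26 bases before the start, and Tnc had one at 126 bases before it. The motif is in 12.4% of the 32851 windows in the table. Bgn had 3 GC boxes that began 34, 10 and 6 bases before the start, the last pair sharing 2 letters, and Tnc had 1. A GC box is in 32.7% of all windows. Bgn had no TATA box, and Fmod had neither element. Windows were on hand for 6 of the genes, with Fbn1 and Vcan the others; that of Fbn1 lies 1555 bases from the GENCODE start. The letters CATTCC, bound by Tead factors of the Hippo pathway, and TGANTCA, bound by AP-1, were in none of the 6 windows, against 12.6% and 6.75% of all windows on either strand. The box CCAAT was in the Vcan window and in 33.8% of all. These are letter matches only.

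Levels differed widely between the genes, and cRPKM, being per length, allows them to be set side by side. In mutant kidneys the order of mean levels was Fn1 (101 cRPKM), Fbn2 (76.0), Vcan (68.3), Postn (41.6), Bgn (32.2), Fbn1 (17.2), Dcn (14.9), Tnc (12.2), Lum (5.74) and Fmod (0.887). In that order no neighbours had overlapping values among the 3 mutant libraries. In wildtype kidneys Fn1 again led with 120 cRPKM, followed by Fbn2 (74.4), Vcan (69.5), Postn (54.1), Bgn (42.1), Dcn (23.2), Fbn1 (19.8), Tnc (10.5), Lum (8.97) and Fmod (1.29). There the values overlapped between Vcan and Postn, Postn and Bgn, Dcn and Fbn1, and Tnc and Lum. Fn1 lay at percentile 95.2 of the tested genes by mean level over the 6 libraries. Fmod lay at percentile 0.71, just above the minimum mean of 1 cRPKM set for testing, which it passed through the wildtype libraries. Annotated genes on the opposite strand share exon bases with Tnc, Fn1, Fbn1 and Fbn2, which leaves those 4 values uncertain, since the handling of strand is not given.

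**Figure D1:**
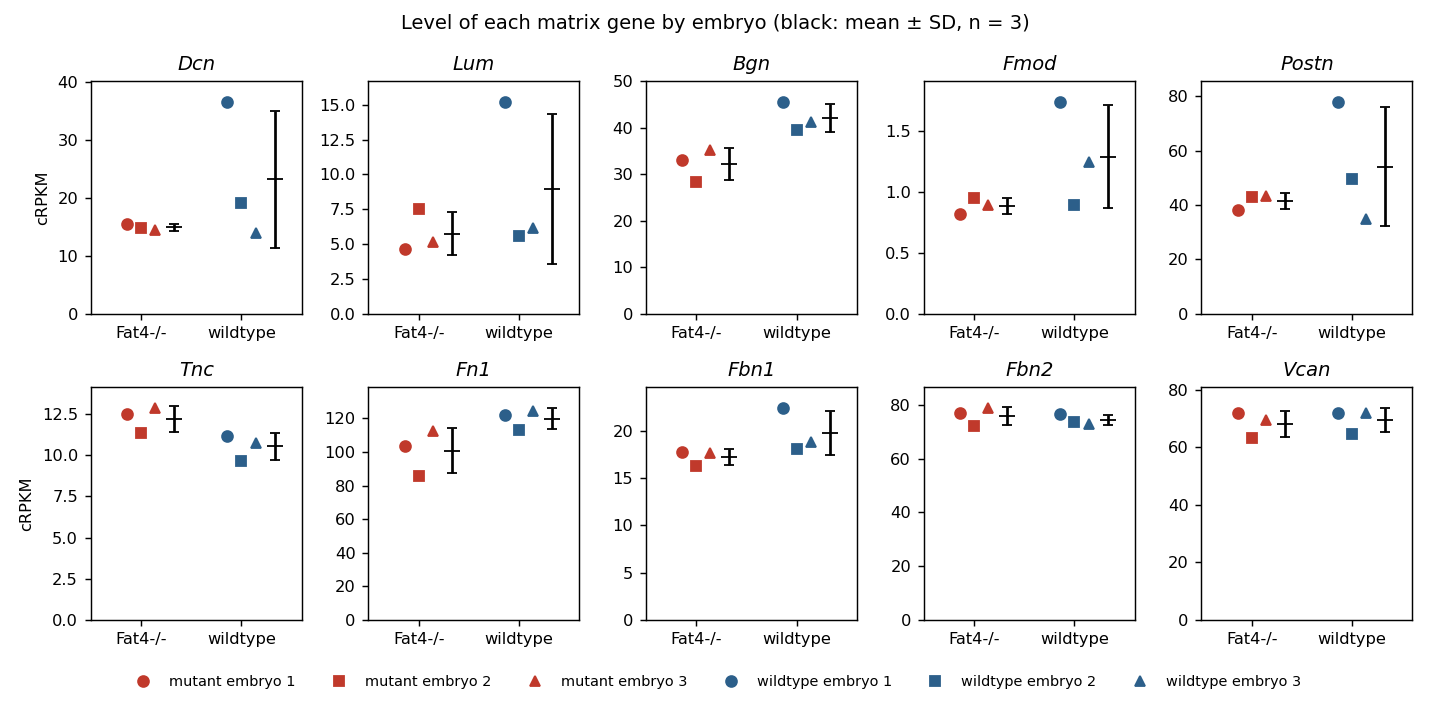
Level of the 10 matrix genes in cRPKM (vertical axis, from 0) in each of 3 Fat4-/- and 3 wildtype embryos; symbols mark the embryo number, and black bars the mean ± SD. Dcn, Lum, Fmod and Postn show wildtype embryo 1 apart from the rest, at 36.47, 15.18, 1.74 and 77.85 cRPKM, while Bgn and Tnc have separate groups.

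Bgn encodes biglycan, a proteoglycan with chondroitin or dermatan sulfate chains. It was at 32.96, 28.40 and 35.24 cRPKM in the mutant libraries, against 45.51, 39.55 and 41.28 in the wildtype libraries. All 3 mutant values lay below all 3 wildtype values. The log2 fold change, mutant minus wildtype on the log2(cRPKM + 1) scale, was -0.38 (SE 0.0813, 95% interval -0.57 to -0.19, adjusted p = 0.0699, limma). With 1 library left out its adjusted p was 0.0895 to 0.166. Bgn lies on chromosome X (73483602 to 73495933, GRCm38). Mutant embryo 1, which shared Y-linked expression with the wildtype embryos, was at 32.96 cRPKM, below all of them, and its log2 fold change against them alone was -0.34 (adjusted p = 0.544).

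The tissue was sequenced whole, so fewer cells of a type and less RNA per cell cannot be told apart. Some markers of several cell types moved alongside Bgn. The 7 endothelial markers summed to between 144.2 and 154.4 cRPKM in mutant and between 156.6 and 168.3 in wildtype libraries, and 1 of them, Cldn5, was called lower. The lowest mutant library of that sum was embryo 2, as it was for Bgn. Cldn5, Tek and Emcn had log2 fold changes of -0.40, -0.34 and -0.18, and their groups did not overlap. Tie1, Pecam1, Kdr and Cdh5 were nearly flat, at -0.057, -0.031, -0.027 and -0.0087, with overlapping groups. The median of the endothelial list was -0.057. The 6 nephron progenitor markers summed to between 278.2 and 317.7 cRPKM in mutant and between 225.3 and 246.4 in wildtype libraries, with Eya1 and Osr1 called higher. Of 8 stromal markers, Pdgfra was called lower, and their sum ran from 579.7 to 607.5 cRPKM in mutant and from 593.1 to 639.6 in wildtype libraries. Tcf21 and Snai2 were at -0.26 and -0.24, with groups that did not overlap. Pdgfrb and Aldh1a2 were at -0.075 and -0.0099, and Meis2, Foxd1 and Meis1 at 0.088, 0.043 and 0.017, all with overlapping groups. The median of the stromal list was -0.042. In the list for ureteral mesenchyme and smooth muscle 1 of 4 tested genes, Des, was called higher (log2 fold change 0.49), while Tagln, Tbx18 and Acta2 were at -0.24, -0.33 and -0.17 and the median was -0.21. Of the 2 tested cartilage and bone markers Col2a1 was called higher (0.51), and Col9a1 was at -0.10. The calls of Cldn5 and Osr1 ended when either wildtype embryo 1 or a single mutant embryo was left out (highest adjusted p 0.0901 and 0.0983), and Des without mutant embryo 2 or 3 (up to 0.0595). Without a filter on low values Cldn5, Osr1 and Des did not pass either (0.0795, 0.0801 and 0.0557). With the Y-linked level as a covariate none of the 6 called markers named here passed, Pdgfra being at 0.183 and Eya1 at 0.179. Log2 fold changes went from -0.48 to -0.45 for Pdgfra, 0.45 to 0.43 for Eya1 and -0.40 to -0.44 for Cldn5. Those of Osr1, Des and Col2a1 went from 0.41 to 0.34, 0.49 to 0.40 and 0.51 to 0.47. Only mutant embryos 2 and 3 lacked Y-linked expression, so that fit rests mainly on mutant embryo 1 and has little power. Whether sex accounts for any change was not tested. The part of these cell types in the matrix values was not tested.

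Dcn encodes decorin, the closest relative of biglycan, and its values went with 1 embryo. It was at 15.51, 14.82 and 14.38 cRPKM in the mutant libraries, against 36.47, 19.07 and 13.93 in the wildtype libraries. The mutant values lay close together, and the wildtype values ran from below the mutant range to far above it. Decorin had a log2 fold change of -0.49 (95% interval -1.12 to 0.13, adjusted p = 0.512, limma), and -0.12 without wildtype embryo 1 (adjusted p = 0.898). The SD of the log2 values was 0.678 in wildtype kidneys, above that of 99.8% of tested genes, and 0.0515 in mutant kidneys, above that of 36.5%.

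Lum encodes lumican, which carries keratan sulfate in some tissues and binds collagen, and lies beside Dcn on chromosome 10 (97565128 to 97572703 and 97479609 to 97518143, GRCm38). It was at 4.62, 7.49 and 5.11 cRPKM in the mutant libraries, against 15.18, 5.58 and 6.16 in the wildtype libraries. Wildtype embryo 1 was again the highest, and mutant embryo 2 came next, above the other wildtype libraries. For Lum the log2 fold change was -0.46 (95% interval -1.19 to 0.26, adjusted p = 0.611, limma), and -0.050 without wildtype embryo 1 (adjusted p = 0.984).

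Fmod encodes fibromodulin, the nearest relative of lumican among these genes, and was close to the limit of testing. It was at 0.82, 0.95 and 0.89 cRPKM in the mutant libraries, against 1.74, 0.89 and 1.25 in the wildtype libraries. The lowest wildtype value fell within the mutant range. Its log2 fold change was -0.27 (95% interval -0.55 to 0.018, adjusted p = 0.420, limma). Without wildtype embryo 1 its mean fell under 1 cRPKM and it was not tested.

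Postn encodes periostin, a matricellular protein with fasciclin domains that takes part in collagen cross-linking. It was at 38.14, 43.06 and 43.49 cRPKM in the mutant libraries, against 77.85, 49.51 and 34.95 in the wildtype libraries. The wildtype libraries held both the highest and the lowest value of all 6. Periostin had a log2 fold change of -0.30 (95% interval -0.84 to 0.24, adjusted p = 0.661, limma), and of -0.0041 without wildtype embryo 1 (adjusted p = 0.998). Postn lies on chromosome 3 (54361109 to 54391037, GRCm38), 15.3 Mb beyond the end of Fat4 on the same chromosome. Wildtype embryos 2 and 3 lay on either side of the mutant range.

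Wildtype embryo 1 was the highest of the 6 libraries for 6 of the 10 genes, and the highest for 24% of all tested genes. Its level over the median of the other 5 libraries was 2.72-fold for Lum, 2.46-fold for Dcn, 1.96-fold for Fmod, 1.81-fold for Postn, 1.29-fold for Bgn and 1.26-fold for Fbn1. A ratio at least as large as that of Postn was found for 0.414% of tested genes. The library stood at 1.09-fold for Fn1, 1.04-fold for Fbn2, 1.03-fold for Vcan and 0.986-fold for Tnc.

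Genes of loose connective tissue moved with it. All 9 of that marker list, which included Col1a1, Col3a1, Prrx1 and Twist1, were highest in wildtype embryo 1. Their sum was 519.6, 565.7 and 567.7 cRPKM in the mutant libraries, against 765.4, 578.6 and 507.0 in the wildtype libraries. The surface glycoprotein gene Thy1 was the 1 member of that list called lower in mutant kidneys (log2 fold change -0.53, adjusted p = 0.00122, limma). It was at 9.57, 9.73 and 9.71 cRPKM in the mutant libraries, against 14.65, 14.20 and 14.48 in the wildtype libraries. Its values thus separated by genotype, and wildtype embryo 1 was only just the highest. With the Y-linked covariate Thy1 was at -0.55 (adjusted p = 0.0783, limma). All 6 skeletal muscle markers were also highest in wildtype embryo 1, with a sum of 6.32, 9.49 and 5.55 cRPKM in the mutant libraries and 15.24, 8.64 and 7.14 in the wildtype libraries. Only 2 of them were high enough to test. Actc1 was at 7.26 cRPKM in that library and at most at 3.35 elsewhere. Tnnt1 was almost level, at 5.33 cRPKM against 5.29 in mutant embryo 2. Myf5, at the floor, was at 0 in 5 libraries and at 0.03 cRPKM in wildtype embryo 1, and Myog was at 0.95 there against 0.12 to 0.34 in the other 5. Stromal markers did not follow to the same extent, with 2 of 8 highest in that library. Other lists did in part, with 14 of 21 matricellular genes and 13 of 18 elastic fibre and microfibril partners highest there. So were 5 of 12 other small leucine-rich proteoglycans and 4 of 7 macrophage markers. These 4 sums were 1.08, 1.07, 1.29 and 1.19 times the median of the other 5 libraries, against 1.35 for loose connective tissue. Of matrix receptors and sulfate synthesis genes 4 of 14 and 4 of 22 were highest there. The part of connective tissue or muscle carried along with the kidney in the values of Dcn, Lum, Fmod and Postn was not tested.

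**Figure D2:**
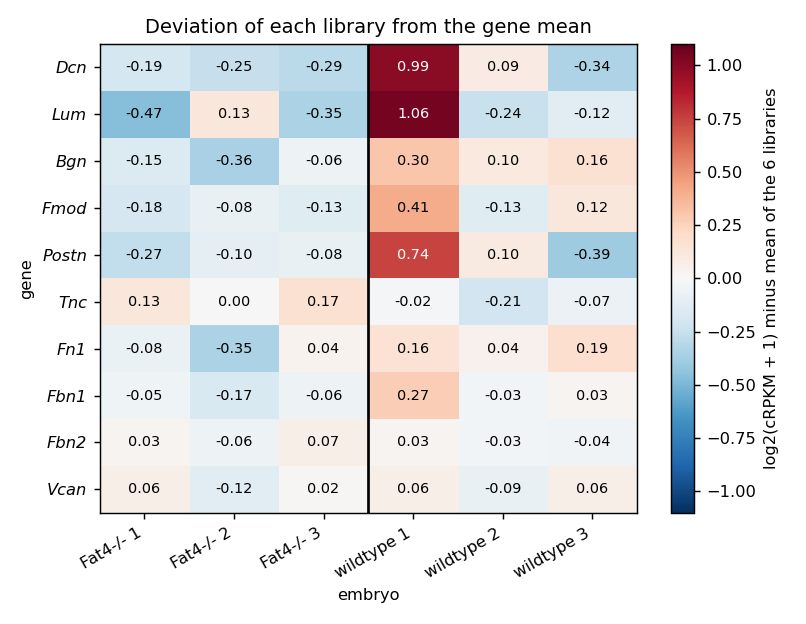
Deviation of each library (columns, Fat4-/- embryos left of wildtype embryos) from the mean of the gene over the 6 libraries, in log2(cRPKM + 1), for the 10 matrix genes (rows). Wildtype embryo 1 reaches 1.06 for Lum, 0.99 for Dcn and 0.74 for Postn, while Fbn2 and Vcan stay within 0.12 of their means in every library.

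**Figure D3:**
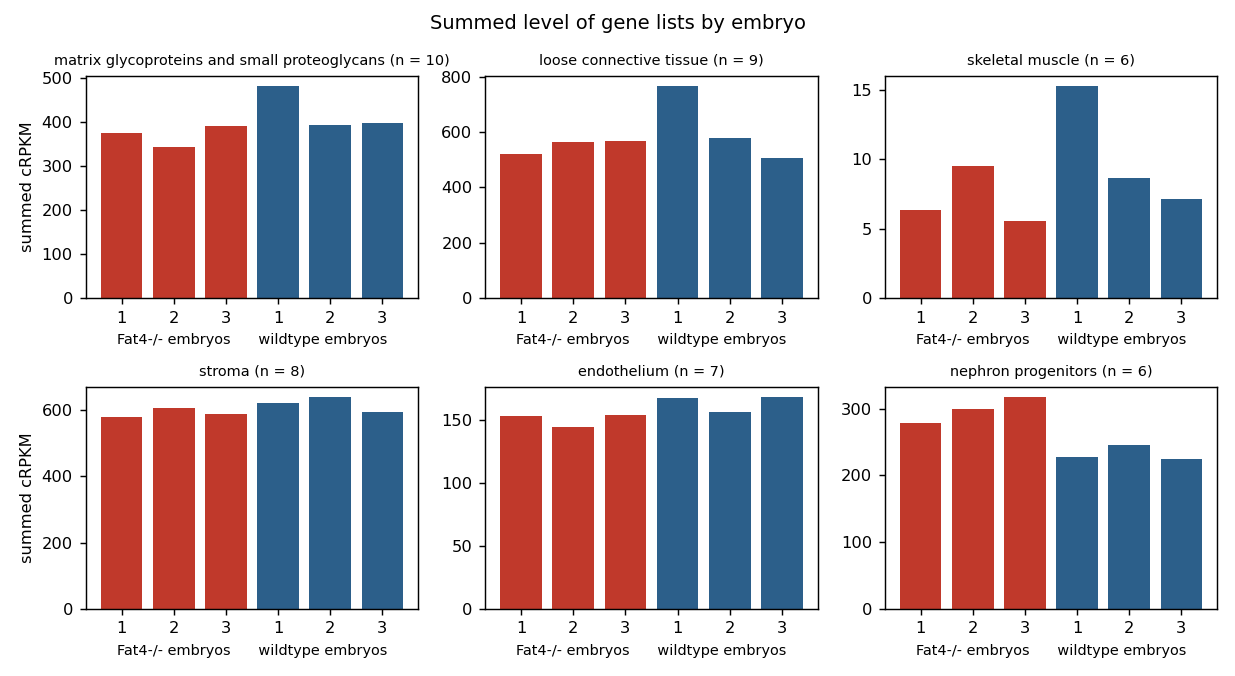
Summed cRPKM of the 10 matrix genes and of 5 marker lists in each embryo, Fat4-/- in red and wildtype in blue, with bars from 0. Wildtype embryo 1 is the highest bar for the matrix genes (480.8), loose connective tissue (765.4) and skeletal muscle (15.24), but not for stroma or nephron progenitors.

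Tnc encodes tenascin C, which modulates adhesion of cells to fibronectin, and it was the gene of the 10 with the largest positive fold change. It was at 12.49, 11.34 and 12.86 cRPKM in the mutant libraries, against 11.18, 9.65 and 10.78 in the wildtype libraries. All 3 mutant values lay above all 3 wildtype values, by a narrow gap between mutant embryo 2 and wildtype embryo 1. Tnc had a log2 fold change of 0.20 (95% interval 0.049 to 0.35, adjusted p = 0.236, limma). Of all tested genes 7.23% were higher in every mutant library. Without wildtype embryo 1 it was 0.24 (adjusted p = 0.223), and against mutant embryo 1 alone 0.23 (adjusted p = 0.870).

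Fn1 encodes fibronectin, the glycoprotein that cells assemble into fibrils, and it was the most abundant of the 10. It was at 103.71, 85.92 and 112.23 cRPKM in the mutant libraries, against 121.97, 112.88 and 124.64 in the wildtype libraries. The groups did not overlap, although mutant embryo 3 and wildtype embryo 2 were almost level. Its log2 fold change was -0.26 (95% interval -0.47 to -0.0485, adjusted p = 0.272, limma). Mutant embryo 2 stood lowest, and without it the log2 fold change was -0.15 (adjusted p = 0.443). Of all tested genes 11% were lower in every mutant library.

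Fbn1 and Fbn2 encode fibrillin-1 and fibrillin-2, the backbone of microfibrils, of which fibrillin-2 is known as the more fetal form. Fbn1 was at 17.77, 16.24 and 17.68 cRPKM in the mutant libraries, against 22.38, 18.06 and 18.86 in the wildtype libraries. Its groups did not overlap, and wildtype embryo 1 was again the highest. Fibrillin-1 had a log2 fold change of -0.18 (95% interval -0.36 to -0.0077, adjusted p = 0.361, limma), and of -0.095 without wildtype embryo 1 (adjusted p = 0.758). Fbn2 was at 76.91, 72.28 and 78.68 cRPKM in the mutant libraries, against 76.58, 73.56 and 72.96 in the wildtype libraries. The groups overlapped, and the log2 fold change of 0.030 had an interval of -0.074 to 0.13 (adjusted p = 0.844, limma). In both genotypes the fetal form was the more abundant by far.

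Vcan encodes versican, a large chondroitin sulfate proteoglycan that binds hyaluronan in young mesenchyme. It was at 72.02, 63.25 and 69.61 cRPKM in the mutant libraries, against 71.90, 64.81 and 71.82 in the wildtype libraries. The ranges were nearly the same, with 1 low library in each. For versican the log2 fold change was -0.026 (95% interval -0.17 to 0.12, adjusted p = 0.909, limma). The intervals for Fbn2 and Vcan were narrow, and those for Dcn, Lum and Postn were wide enough to hold 0 and a fall of over 0.8 on the log2 scale.

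**Figure D4:**
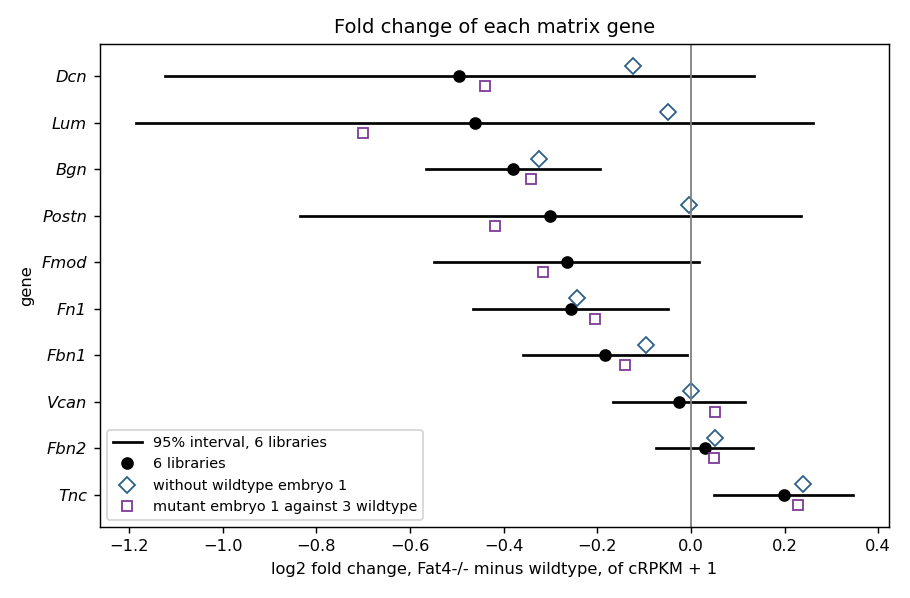
Log2 fold change of cRPKM + 1, Fat4-/- minus wildtype, of the 10 matrix genes with the 95% interval from the fit over 6 libraries (circles and lines), without wildtype embryo 1 (diamonds; Fmod was then too low to test), and for mutant embryo 1 against the 3 wildtype embryos (squares). Leaving out wildtype embryo 1 brings Dcn to -0.12, Lum to -0.050 and Postn to -0.0041, while Bgn stays at -0.32.

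As a group, 8 of the 10 genes had a fold change below 0, with a median of -0.26, while over all tested genes 56.8% were below 0 and the median was -0.012. Fmod is 1 of these 8 and passed the minimum level only through the wildtype libraries. With a minimum mean of 5 cRPKM, which leaves Fmod out, the median of the 9 other genes was -0.26. Without wildtype embryo 1 the median of the 9 genes still tested was -0.050. An unadjusted p under 0.05 was reached by Bgn, Tnc, Fn1 and Fbn1, or 4 of the 10, against 13% of all tested genes. Lower in mutant kidneys were 3 of them, against 7.97% of all tested genes, and higher was 1, against 5.08%. The members had been listed with earlier results of these data known, so these counts are a description.

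The other genes of the same matrix were read from 7 lists with 109 members, of which 79 were tested. In all 1 rose and 2 fell in mutant kidneys, or 3.8% of those tested, against 1.43% of all tested genes (0.552% higher and 0.877% lower), and the median log2 fold change was -0.037. Over the 3 tested of 12 other small leucine-rich proteoglycans the median was 0.052, and none passed. Ogn, for osteoglycin, was at 5.64, 4.84 and 4.38 cRPKM in the mutant libraries, against 8.90, 5.56 and 3.99 in the wildtype libraries, again with wildtype embryo 1 the highest. Tsku, for tsukushi, was at a log2 fold change of 0.052 (adjusted p = 0.663, limma). Aspn, for asporin, was too low to test, with means of 0.463 cRPKM in mutant and 0.950 in wildtype kidneys.

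Of 18 partners in elastic fibres and microfibrils, 17 were tested and none passed, with 13 below 0 and a median of -0.099. Lox, for the lysyl oxidase that cross-links collagen and elastin, was at 7.48, 6.66 and 7.46 cRPKM in the mutant libraries, against 13.89, 10.52 and 9.07 in the wildtype libraries. Its groups did not overlap (log2 fold change -0.55, adjusted p = 0.0846, limma). Emilin1, for a glycoprotein at the elastin and microfibril interface, was at -0.12 (adjusted p = 0.309).

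Of the matricellular list 12 of 21 were tested, 2 fell and none rose, with a median of -0.042; of all tested genes 0.877% fell. Igfbp7, for a secreted binding protein that is strong in vessels, was at 8.79, 7.88 and 8.23 cRPKM in mutant kidneys, against 13.36, 13.14 and 18.57 in wildtype kidneys. It fell by 0.77 on the log2 scale (adjusted p = 0.0229, limma). Spon1, for the matrix protein F-spondin, was at 1.14, 1.19 and 1.44 cRPKM in mutant kidneys, against 2.82, 2.05 and 2.19 in wildtype kidneys, and fell by 0.57 (adjusted p = 0.0332). Both lost the call without any 1 of the 3 mutant embryos (adjusted p up to 0.0967 for Igfbp7 and 0.123 for Spon1), and Spon1 also without wildtype embryo 1 (0.0584).

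Versican binds hyaluronan, and of the 13 genes for its relatives, link proteins and hyaluronan turnover 7 were tested, of which 1 rose. Has2, for the main hyaluronan synthase of embryos, was at 26.47, 27.42 and 27.70 cRPKM in mutant kidneys, against 21.72, 23.78 and 20.44 in wildtype kidneys. It rose by 0.30 on the log2 scale (adjusted p = 0.0464, limma), and lost the call without any 1 mutant embryo (adjusted p up to 0.166), without wildtype embryo 1 (0.115) or without wildtype embryo 3 (0.0782). Has2 also did not pass with quantile normalisation (0.0539) or library weights (0.0807). Has3, a second synthase at a far lower level, had a log2 fold change of -0.46 (adjusted p = 0.0873), and Hapln1, for a link protein that fixes versican to hyaluronan, -0.19 (adjusted p = 0.114). The groups of both did not overlap. With the Y-linked level as a covariate Has2, Igfbp7 and Spon1 did not pass (adjusted p = 0.650, 0.489 and 0.465, limma), nor did they without a filter on low values (0.109, 0.0879 and 0.0967). With that covariate, a fit of little power, their log2 fold changes were 0.26, -0.69 and -0.64.

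Among 9 proteases that cut versican or process small proteoglycans, 7 were tested and none passed (median -0.039). Adamts1, which cleaves versican, was at 19.77, 19.66 and 20.72 cRPKM in the mutant libraries, against 23.78, 22.23 and 23.64 in the wildtype libraries (log2 fold change -0.20, adjusted p = 0.0699, limma). Adamts5, another versicanase, was at 0.20 (adjusted p = 0.181), with groups that did not overlap either. None of 12 tested receptors passed (median -0.013). Itga8, for an integrin chain of nephron progenitors and stroma, was at 0.20 (adjusted p = 0.127), and Egfr, a receptor that decorin binds, at -0.22 (adjusted p = 0.285). None of 21 tested genes for chondroitin and dermatan sulfate synthesis passed (median -0.026), with the sulfotransferase genes Chst15 at -0.20 (adjusted p = 0.105) and Ust at 0.14 (adjusted p = 0.260).

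**Figure D5:**
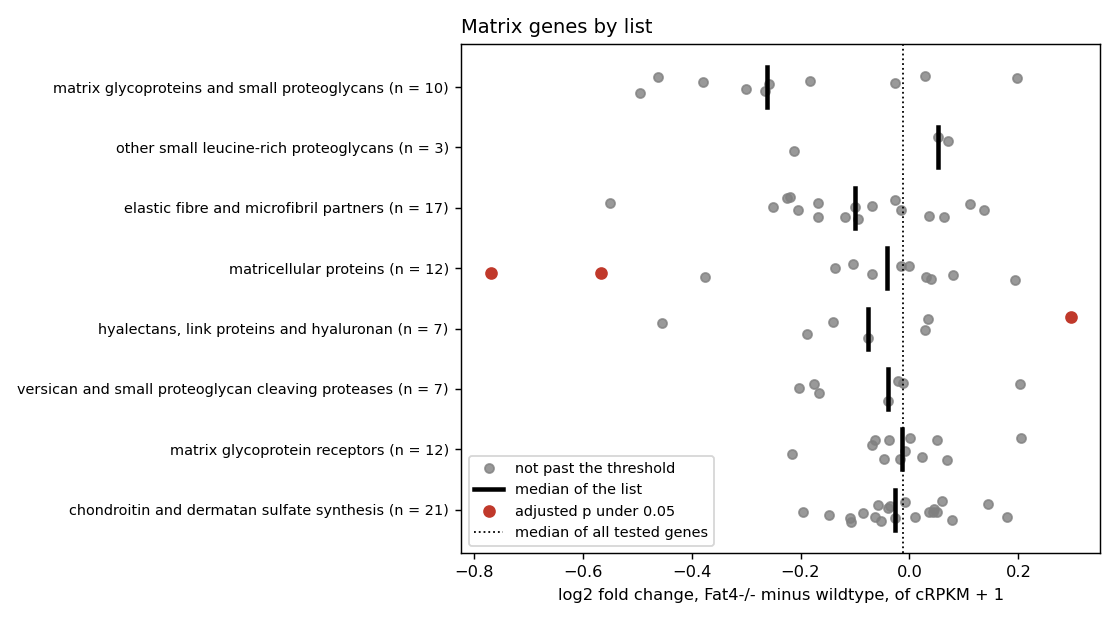
Log2 fold change of cRPKM + 1, Fat4-/- minus wildtype, of tested genes (points) in the 10 matrix genes and 7 further lists; black bars are list medians and the dotted line the median of all tested genes. Igfbp7, Spon1 and Has2 are the 3 genes past the threshold, and the 10 matrix genes have a median of -0.26.

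The genes with the most similar profile were found for all 10 members and are given for the 5 whose highest library was at least 1.5 times the lowest. Likeness was the root mean square difference, over the 6 libraries, between the log2 deviations of both genes from their own means. For Dcn the nearest were Gdf10 (0.0661), a Bmp family ligand, Trim12a (0.125) and Sfrp4 (0.152), a secreted Wnt modulator. Gdf10 was at 1.04, 1.02 and 1.01 cRPKM in the mutant libraries, against 3.43, 1.45 and 0.70 in the wildtype libraries, the same order of wildtype embryos as in Dcn. For Postn they were Dkk2 (0.081), a secreted Wnt modulator, Nov (0.105), a matricellular gene, and again Gdf10 (0.11). For Lum they were Trim12a (0.218), Gm6723 (0.221) and the muscle actin gene Actc1 (0.235), all less close. For Fmod they were B3gnt9-ps (0.0518), Bmp3 (0.0575) and Igf1 (0.0654).

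For Bgn the nearest was Tek (0.0395), the angiopoietin receptor of endothelium and 1 of the 7 endothelial markers. Of those markers Tie1, Pecam1, Kdr and Cdh5 were nearly flat between genotypes. Tek was at 9.17, 7.88 and 9.15 cRPKM in the mutant libraries, against 12.22, 10.66 and 11.13 in the wildtype libraries. The order of the wildtype embryos was the same in both genes, and mutant embryo 2 was the lowest in both. Wscd2 (0.0568) and the complement protease gene C1ra (0.0646) followed. C1ra was also near the minimum level, at 0.88 to 1.04 cRPKM in mutant and 1.29 to 1.66 in wildtype libraries, and passed it through the wildtype libraries. With 12315 genes and 6 libraries close matches are easily found, so these are descriptions.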

How the data were processed

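The authors deposited 1 table of cRPKM, a corrected RPKM, with 1 column per embryo. Reads had been trimmed, per the file headers. Bowtie and mm9 are named in the submitters' processing notes; versions, the correction and strand handling are not given in the sources used here. Of 22667 genes, 21553 hold values. Columns were matched to samples by the header text in the labels.

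These values are not counts, so log2(cRPKM + 1) was fitted in R 4.3.3 by limma 3.58.1, with genotype alone in the model, a trended eBayes prior and 2-sided tests. Genes had to average at least 1 cRPKM over the 6 libraries, which left 12315. Benjamini-Hochberg adjustment covered all of these, and a call is an adjusted p under 0.05. The pseudocount understates the change of low genes. The fit was run on simulated, independent normal values, which hold no shift shared by many genes of 1 embryo. That run checks the calculation only, not how well the model suits these libraries. An exact permutation test of 3 against 3 cannot go below p = 0.1 and was not used.

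The members and lists were chosen with earlier results of these data known. Named genes were the 10 members, Fat4, the called genes and the 2 smallest p-values of each pathway list, called markers, and the 3 nearest profiles; Aspn, Hapln1, single marker genes and the motifs were chosen after values were seen. Positions come from GENCODE M21 and promoters from RefSeq, both on GRCm38 and not mm9. Antisense or other genes overlap Tnc, Fn1, Fbn1, Fbn2 and Fat4 exons, which makes these values uncertain, since strand is not given.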

Additional observations from a re-analysis of the deposited data

How the results depend on the processing

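Across 16 alternatives, 1 of them chosen after seeing the data, 154 of 158 member values kept their sign. The changed filters and the replicate block cannot alter a fold change, so their signs were fixed in advance. The kept signs also include values close to 0, such as Postn at -0.0041 and Lum at -0.050 without wildtype embryo 1. Fmod could not be tested without wildtype embryo 1 or with a minimum mean of 5 cRPKM. Vcan reversed with library weights (0.042), with the Y-linked level as a covariate (0.054), in the 4 libraries with Y-linked expression (0.052) and without mutant embryo 2, with a range of -0.075 to 0.028 over the libraries left out. No member passed in either direction, apart from 1 with the embryo number as a replicate block, where Bgn passed downwards (-0.38, adjusted p = 0.0319).

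With that block 109 genes were higher and 164 lower, against 68 and 108 without it. Same-numbered embryos correlated at 0.099, 0.205 and 0.277 in their deviations from the group means, against -0.373 to 0.227 for other pairs. Wildtype embryo 1 correlated better with mutant embryo 2 (0.227) than with its own number. Same-numbered embryos also had neighbouring numbers in the column headers. The labels do not say that the numbers pair the embryos, and these correlations do not settle it. The block was therefore kept as an alternative, and the Bgn call depends on that choice.

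Without a filter on low values 10 genes were higher and 22 lower, with a minimum mean of 5 cRPKM 61 were lower, with the Y-linked covariate 1 and 1, and in the 4 libraries with Y-linked expression, where mutant embryo 1 is assumed to vary like the others, 1 and 3. With 1 library left out the counts ran from 7 to 53 higher and from 17 to 87 lower, and the median of the members from -0.31 to -0.050. The causes were not tested. Depth is unknown, so no counting error could be given.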
